A study of Mus musculus with 12 samples.

Results

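The 10 genes described here encode amino acid transporters of the plasma membrane, namely Slc7a1, Slc7a3, Slc7a5, Slc7a11, Slc3a2, Slc1a4, Slc1a5, Slc38a1, Slc38a2 and Slc6a9. They were chosen by name, with earlier results of these data known, and all of them were found among the 21671 genes of the deposited table. Counts set below beside the shares over all genes therefore describe these genes and are not independent support. Their mRNA was measured by RNA-seq in FL MycER cells, a pool of the IL-3-dependent mouse lymphoid precursor line FL5.12 (BALB/c) that was transduced with a retrovirus for MycER and selected with antibiotic. MycER is a fusion of MYC with a hormone-binding domain that is activated by 4-hydroxytamoxifen (OHT). All 12 libraries came from cells that carried MycER, so an effect of OHT itself and an effect of MycER cannot be told apart in these libraries. There were 3 biological replicates in each of 4 conditions. Untreated cells received neither agent, and OHT cells had 72 h in 100 nM OHT. The drug IACS-010759, which blocks ETC complex I, was given at 135 nM over the last 24 h, either to nonprimed cells (IACS) or after 48 h of OHT priming (OHT_IACS). According to the paper, cells were passaged in medium with reduced glucose before experiments with this drug.

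Amino acids cross the plasma membrane on carriers with overlapping substrates. Slc3a2 encodes the CD98 heavy chain, a glycoprotein that pairs with a light chain such as Slc7a5 (LAT1, an exchanger of large neutral amino acids) or Slc7a11 (xCT, which imports cystine in exchange for glutamate) and brings it to the cell surface. Slc7a1 and Slc7a3 (CAT1 and CAT3) carry cationic amino acids, Slc1a4 and Slc1a5 (ASCT1 and ASCT2) exchange small neutral amino acids and, for ASCT2, glutamine, Slc38a1 and Slc38a2 (SNAT1 and SNAT2) take up small neutral amino acids with sodium, and Slc6a9 (GLYT1) takes up glycine. Several of these genes are known targets of ATF4, the transcription factor of the integrated stress response, and several have been described as MYC targets. Respiration is known to be needed for proliferating cells to make aspartate.

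Promoter windows from RefSeq (GRCm38.p6, 250 bases before to 50 bases after a transcription start) were at hand for 6 of the 10 genes, namely Slc7a11, Slc6a9, Slc7a1, Slc1a4, Slc38a2 and Slc3a2. They were searched on both strands for the C/EBP-ATF response element TGATGNAA, which ATF4 is known to bind, for the E-box CACGTG, which MYC is known to bind, and for the antioxidant response element TGACNNNGC. The first motif was present in 3.97% of all 32851 windows, and 2 or more copies were present in 23 windows (0.07%). The Slc7a11 window was among these 23, with copies at -66 to -59 and at -47 to -40 from the start, and the Slc1a4 window held 1 copy at -4 to 4. Both stretches are shown because they held this motif, which is in capitals, and not for the size of the response. The Slc7a11 stretch is chr3:50443614-50443863 on the minus strand, positions -250 to -1, and the Slc1a4 stretch is chr11:20332699-20332728 on the minus strand, positions -15 to 15.
Slc7a11: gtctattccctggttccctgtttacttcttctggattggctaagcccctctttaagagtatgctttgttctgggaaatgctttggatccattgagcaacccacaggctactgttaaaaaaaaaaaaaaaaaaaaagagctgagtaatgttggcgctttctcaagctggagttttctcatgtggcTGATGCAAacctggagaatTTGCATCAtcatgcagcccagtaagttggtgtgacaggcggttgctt
Slc1a4: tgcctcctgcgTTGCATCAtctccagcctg

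No window of Slc6a9 (3 starts), Slc7a1 (2 starts), Slc38a2 or Slc3a2 held these letters. The E-box was in none of the 9 windows of the 6 genes, against 7.15% of all windows. At that share, so few windows can readily hold none. The antioxidant response element was in 4 of the 9 windows (2 starts of Slc6a9, 1 start of Slc7a1, and Slc38a2), against 12.4% of all windows. These matches describe the windows and no more than that, since no binding was measured and the transcription start used in FL5.12 cells was not determined.

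The values were RPKM, read numbers corrected for gene length and for library size. A level compared between genes therefore rests on the length behind it, as worked out from the RPKM steps. The reads worked out from the RPKM steps summed to between 4199265 and 5762339 on genes per library. OHT replicates 1 and 3 had the smallest library totals, at 0.713 and 0.74 of the largest. Myc, whose RPKM may include reads of the transgene, was at 36.3 ± 0.779 (SD, n = 3) in untreated cells and 21.0 ± 1.6 with OHT, 46.8 ± 0.216 with IACS and 30.3 ± 1.71 in OHT_IACS, a decrease of 0.81 on the log2 scale with OHT (adjusted p = 1.7e-07, limma). Of 12 markers of B-lineage precursors, 5 reached 1 RPKM, led by the cytokine receptor chain Csf2rb (39.8 to 48.5), whereas Pax5, Rag1 and Dntt were at 0 in every library and Ebf1 was at 0.0148 at most. The erythroid regulator Gata1 was at 26.0 to 32.9, Klf1 at 4.92 to 13.7 and Hbb-b1 at 0.712 to 2.4. Of the 4 myeloid markers, the granule gene Mpo was at 8.65 to 13.7 and Cd14 at 0.193 to 1.22. Elane and Csf1r were at 0.202 and 0.107 at most. All 3 T cell markers were at 0.0365 or less. The libraries thus lacked these defining transcripts of committed B cells. The marker sums moved with the conditions. The summed RPKM of the 2 mast cell markers ran from 4.05 to 5.15 in untreated cells, 4.05 to 5.84 with OHT, 7.62 to 8.47 with IACS and 11.1 to 14.2 in OHT_IACS, nearly all of it from Cpa3. That of the 3 erythroid markers ran from 41.1 to 41.4, 42.1 to 44.9, 33.8 to 39.7 and 36.6 to 37.2 in the same order. For the 4 myeloid markers it ran from 13.0 to 14.5, 9.71 to 12.3, 10.7 to 13.5 and 9.07 to 10.3, mostly from Mpo. For the 12 B-lineage markers it ran from 69.2 to 71.8, 69.0 to 73.5, 71.5 to 72.5 and 74.9 to 77.6. Most of that sum came from Csf2rb, Ptprc and Il3ra. Their part in the transporter results was not tested. In bulk RNA, fewer cells of a type and less RNA per cell cannot be told apart.

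In GENCODE vM21 (GRCm38, not the mm9 build that the processing notes name) Slc7a1 lies on chromosome 5 (148327410 to 148399904), Slc7a3 on X (101079210 to 101086020), Slc7a5 on 8 (121881150 to 121907694), Slc7a11 on 3 (49892526 to 50443614), Slc3a2 on 19 (8706882 to 8723369) and Slc1a4 on 11 (20302180 to 20332713), all on the minus strand. Slc1a5 lies on the plus strand of chromosome 7 (16781340 to 16798274). Slc38a1 (96571418 to 96642913) and Slc38a2 (96687392 to 96699730) are on the minus strand of chromosome 15, close to each other.

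Of the 10 transporters, 9 were above 1 RPKM in all 12 libraries (lowest value 1.87, for Slc6a9), so that the requirement of 1 RPKM in at least 3 libraries did not select among them by condition. They rested on 82 to 3183 reads per library. Untreated cells expressed Slc7a5 and Slc3a2 most, at 37.2 ± 0.902 and 36.8 ± 1.26 RPKM, and these 2 genes overlapped between libraries. Below them stood Slc1a5 (30.3 ± 0.449), Slc38a2 (27.5 ± 0.294), Slc7a1 (19.0 ± 0.187), Slc1a4 (12.9 ± 0.735), Slc38a1 (11.5 ± 0.201), Slc7a11 (3.55 ± 0.23) and Slc6a9 (2.22 ± 0.304), with no overlap between neighbours from Slc1a5 downward. This order holds for the lengths behind the deposited RPKM. For Slc38a1 that length was 14484 bases, 1.99 times the GENCODE transcript nearest to it in length (7266), and for Slc7a11 it was 11245 against 9223, while for the other 7 genes the ratio lay between 0.998 and 1.05. At the transcript length Slc38a1 would be at 22.9 RPKM in untreated cells, above Slc7a1 and Slc1a4, and Slc3a2 would be at 38.7, above Slc7a5 at 37.6. The merged exons of Slc38a1 came to 17236 bases, more than either length, and the transcripts behind its reads were not determined. On the deposited values Slc3a2 and Slc7a5 still overlapped with OHT and with IACS, Slc38a1 overlapped with Slc1a4 with OHT, and in OHT_IACS Slc7a5 stood above Slc3a2 in every library while Slc38a2 and Slc7a1 overlapped. The summed RPKM of the 10 genes was 181 ± 3.1 in untreated cells, 210.0 ± 6.32 with OHT, 244 ± 7.21 with IACS and 278 ± 3.26 in OHT_IACS.

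**Figure D1:**
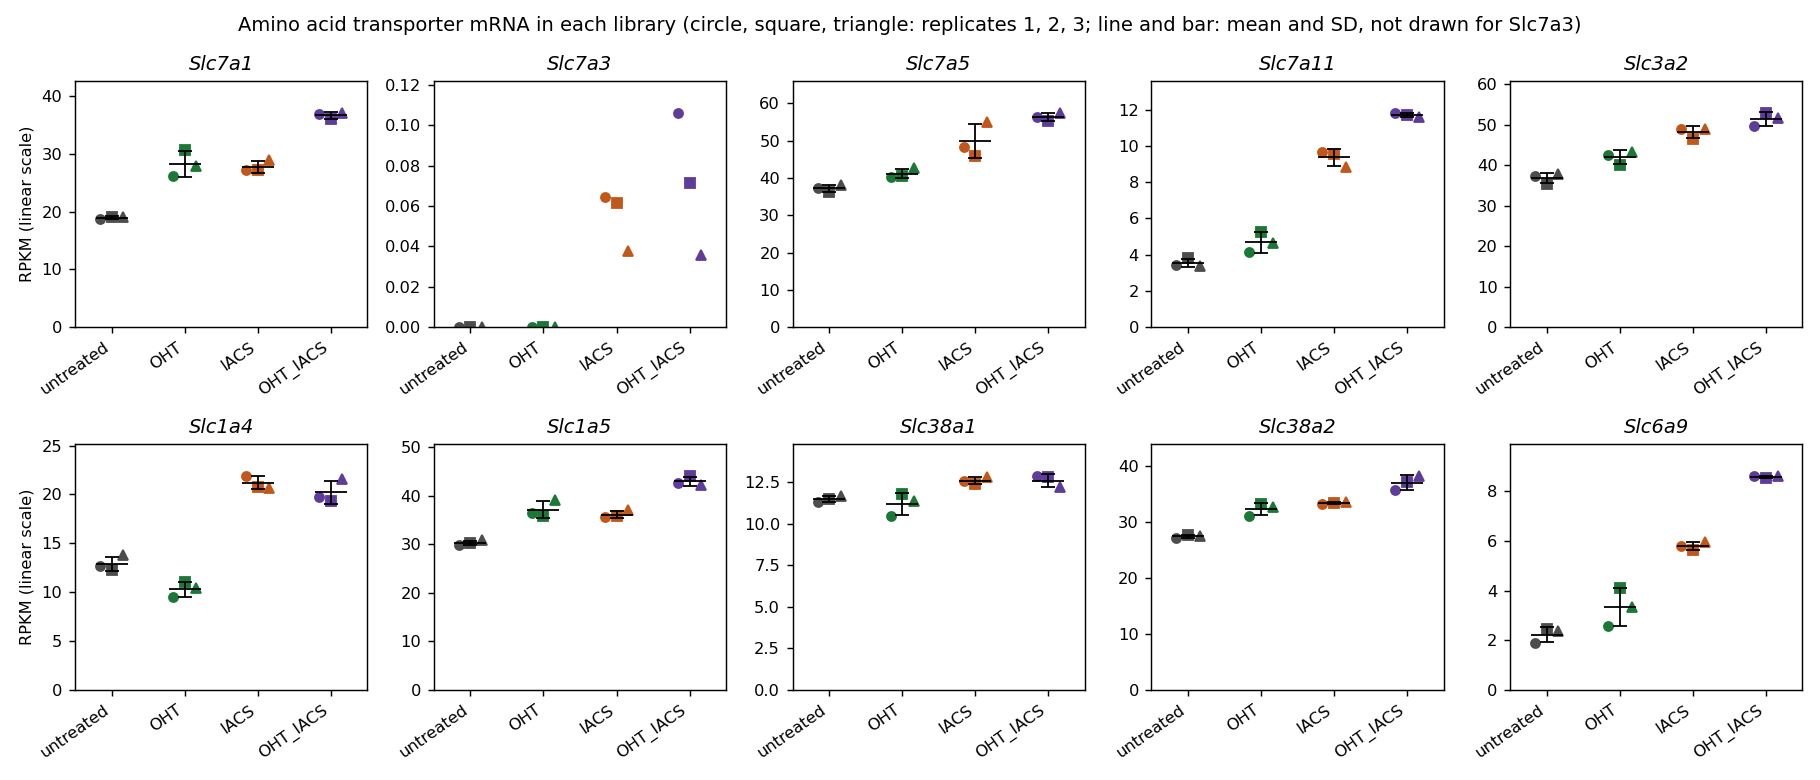
RPKM (linear scale, each panel from 0) of the 10 transporters in each of the 12 libraries, by condition; symbols are replicates, and lines and bars are the mean and SD of 3 replicates, left out for Slc7a3. The 3 OHT_IACS libraries stand above all other libraries for Slc7a1, Slc7a5, Slc7a11, Slc3a2, Slc1a5, Slc38a2 and Slc6a9, whereas Slc1a4 is lowest with OHT and highest with IACS or OHT_IACS.

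The comparison of IACS with untreated cells asked how transporter mRNA responded to complex I inhibition without priming. Slc7a11 and Slc6a9 rose most, by 2.54-fold and 2.51-fold, followed by Slc1a4 (1.6-fold), while Slc7a1, Slc7a5, Slc3a2, Slc1a5 and Slc38a2 rose by less. Hence 8 of the 9 transporters tested were DEGs with higher expression and none with lower (limma, adjusted p under 0.05), where 8.15% of the 9745 genes tested were higher and 7.74% lower (15.9% in all). Their median log2 fold change was 0.388, against 0.004 over all genes tested. All 9 were higher in every IACS library than in any untreated library on the scaled values, a separation that 19.9% of all genes showed in this direction and 18.7% in the other.

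OHT_IACS against OHT put the same question to OHT-primed cells, and shares no library with the comparison above. Here all 9 transporters tested were DEGs with higher expression, where 11.9% of all genes were higher and 11.8% lower (23.7% in all). Slc6a9, Slc7a11 and Slc1a4 again had the largest increases among the 9, of 2.57-fold, 2.48-fold and 1.95-fold. The median log2 fold change was 0.377, against -0.014 over all genes. Libraries did not overlap for any of the 9, against 17.8% of all genes in this direction and 19.1% in the other.

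OHT against untreated cells addressed MycER activation without inhibitor. Of the 9 genes, 6 were higher (Slc7a1, Slc7a11, Slc3a2, Slc1a5, Slc38a2 and Slc6a9), Slc1a4 was lower, and Slc7a5 and Slc38a1 did not pass the test. In this comparison 18.2% of all genes were called higher and another 18.2% lower (36.4% in all), so that a call was itself common. The median was 0.212, against 0.013 over all genes. Separation of the libraries was seen upward for 7 of the 9 and downward for 1, against 22.5% and 23.5% of all genes. With the inhibitor present, OHT_IACS against IACS, 5 genes were higher (Slc7a1, Slc7a11, Slc1a5, Slc38a2 and Slc6a9) and none lower, against 12.3% and 14.3% of all genes (26.5% in all). The same 5 genes had libraries that did not overlap, upward in each case, against 20.1% of all genes upward and 22.2% downward. Slc7a5 and Slc3a2 were also separated in the RPKM as deposited, by less than 1 RPKM. The median of the 9 was 0.19, against -0.003 over all genes.

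**Figure D2:**
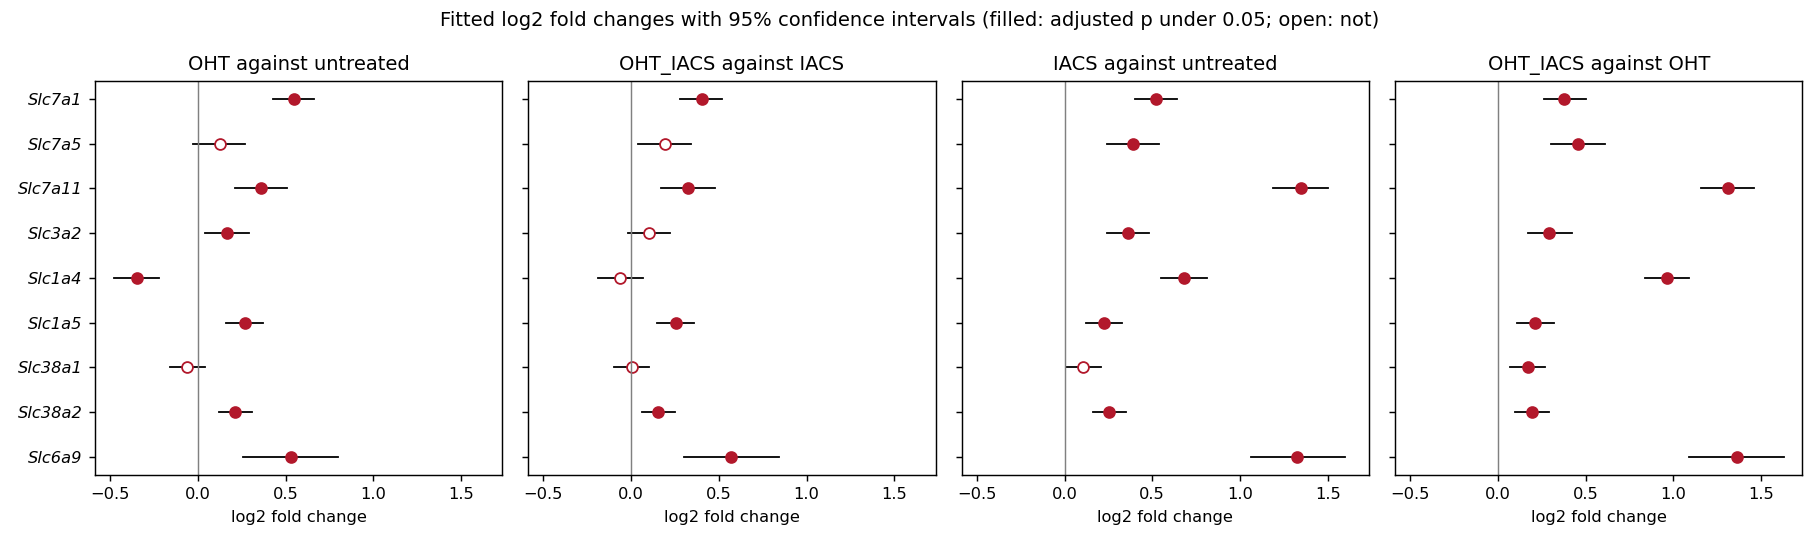
Fitted log2 fold change (points) of the 9 transporters tested, with 95% confidence intervals (lines), in the 4 comparisons between conditions; filled points had an adjusted p under 0.05 (limma). The panels for OHT show increases of at most 0.57 and a decrease of Slc1a4, and the panels for IACS-010759 show every point right of 0, with Slc7a11 and Slc6a9 beyond 1.3.

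The cationic amino acid transporter Slc7a1 rose with each treatment. Its RPKM was 18.8, 19.1 and 19.1 in untreated cells, 26.2, 30.7 and 27.9 with OHT, 27.3, 27.2 and 29.0 with IACS, and 36.9, 36.0 and 37.1 in OHT_IACS. OHT and IACS libraries overlapped, the untreated libraries were below all others and the OHT_IACS libraries above all others, with a mean 1.93 times that of untreated cells. OHT raised it by 0.55 (SE 0.06, adjusted p = 7.5e-06) on the log2 scale without inhibitor and by 0.40 (adjusted p = 0.00015) with it. The response to IACS-010759 was 0.52 (adjusted p = 5e-05) in nonprimed and 0.38 (adjusted p = 0.00044) in OHT-primed cells. The related Slc7a3 was listed at 0 in all untreated and OHT libraries. It rested on 2, 2 and 1 reads in the IACS libraries (0.0645, 0.0614 and 0.0379 RPKM) and on 3, 2 and 1 reads in the OHT_IACS libraries (0.106, 0.0715 and 0.0358 RPKM). No library held more than 3 reads, the floor used here, so no fold is given. The gene was left out of the test by the filter, and a fit without a filter called it in both responses to IACS-010759 (adjusted p = 0.019 and 0.0052, limma), a call that rests on these 1 to 3 reads per library.

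The light chain Slc7a5 was higher with IACS-010759. Its RPKM was 37.2, 36.3 and 38.1 in untreated cells, 40.3, 40.5 and 42.6 with OHT, 48.4, 46.0 and 54.9 with IACS, and 56.3, 55.4 and 57.4 in OHT_IACS. The increase with IACS-010759 was 0.39 (SE 0.07, adjusted p = 0.0025) in nonprimed and 0.45 (adjusted p = 0.00062) in OHT-primed cells. IACS replicate 3 lay well above the other IACS libraries. OHT gave a log2 difference of 0.12 (95% interval -0.03 to 0.27, adjusted p = 0.18) without inhibitor, which became 0.0388 with quantile normalization and 0.00446 with the library total in the fit (adjusted p = 0.57 and 0.97). With inhibitor it was 0.19 (interval 0.04 to 0.34, adjusted p = 0.061). The latter passed the threshold without IACS replicate 3 (0.284, adjusted p = 0.0024), without OHT replicate 2 (0.19, adjusted p = 0.05 after rounding, just under the threshold) and in 5 of the other alternatives, and was 0.126 (adjusted p = 0.25) without IACS replicate 2 and 0.161 (adjusted p = 0.19) without IACS replicate 1.

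Its heavy chain Slc3a2 followed a similar course. It was at 37.3, 35.4 and 37.8 RPKM in untreated cells, 42.6, 40.0 and 43.4 with OHT, 48.9, 46.5 and 49.1 with IACS, and 49.6, 52.9 and 51.8 in OHT_IACS. IACS-010759 raised it by 0.36 (adjusted p = 0.001) in nonprimed and 0.29 (adjusted p = 0.0028) in OHT-primed cells. The increase with OHT, 0.17 (SE 0.06, adjusted p = 0.035), was near the threshold and was lost in 10 of 24 alternatives. Of these, 6 left out a single library, namely any untreated library, OHT replicate 1 or 3, or IACS replicate 1, with values of 0.132 to 0.18 and adjusted p of 0.05 to 0.13. After adding the library total to the fit it was 0.0598 (adjusted p = 0.28). The difference between OHT_IACS and IACS was 0.10 (adjusted p = 0.21).

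The light chain Slc7a11 had larger fold changes than its heavy chain. Its RPKM was 3.45, 3.81 and 3.39 in untreated cells, 4.12, 5.24 and 4.65 with OHT, 9.68, 9.56 and 8.84 with IACS, and 11.8, 11.7 and 11.6 in OHT_IACS. No condition overlapped with another. The increase with IACS-010759 was 1.35 (SE 0.07, adjusted p = 7.8e-08), rank 21 from the top of the 9745 genes, and 1.31 (adjusted p = 1e-07), rank 32, in OHT-primed cells. OHT added 0.36 (adjusted p = 0.0016) without and 0.32 (adjusted p = 0.0044) with the inhibitor.

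As the heavy chain is shared, light chain mRNA was set against Slc3a2 within each library. Slc7a5 was at 1.01 ± 0.0139 times Slc3a2 in untreated cells, 0.981 ± 0.0337 with OHT, 1.03 ± 0.0739 with IACS and 1.1 ± 0.0453 in OHT_IACS, and thus stayed near parity. For Slc7a11 the ratio was 0.0967 ± 0.00973, 0.112 ± 0.0176, 0.195 ± 0.0131 and 0.227 ± 0.00913, with every library with inhibitor above every library without it. Slc7a6 (y+LAT2), which was not a DEG in any comparison and had mean RPKM of 18.9 to 19.5, went from 0.517 ± 0.022 of Slc3a2 in untreated cells to 0.367 ± 0.00158 in OHT_IACS. The summed RPKM of 6 light chains (Slc7a5, Slc7a6, Slc7a7, Slc7a8, Slc7a10 and Slc7a11) was 1.7 ± 0.0533 times Slc3a2 in untreated cells, 1.6 ± 0.0913 with OHT, 1.72 ± 0.0494 with IACS and 1.76 ± 0.0592 in OHT_IACS. Within that sum Slc7a11 made up 5.69 ± 0.395%, 6.94 ± 0.692%, 11.3 ± 1.0% and 12.9 ± 0.226%. Over the same conditions the share of Slc7a6 was 30.5 ± 0.419%, 28.9 ± 0.376%, 22.9 ± 1.14% and 20.9 ± 0.647%, and that of Slc7a5 was between 59.5% and 62.4% on average. These ratios are of mRNA, carry no test, and say nothing of assembled protein: with 3 libraries against 3, an exact permutation test cannot go below p = 0.1.

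**Figure D3:**
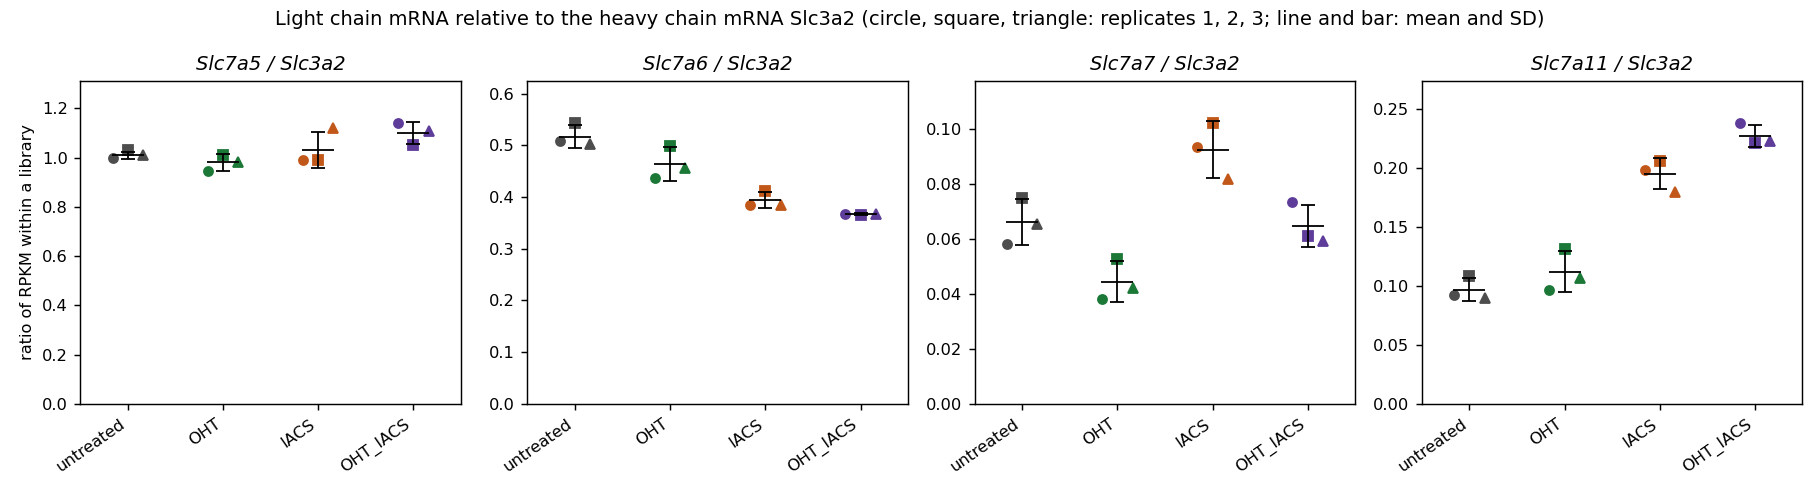
Ratio of the RPKM of 4 light chains to that of the heavy chain Slc3a2 in each of the 12 libraries (symbols, by replicate), with the mean and SD of 3 replicates; each axis starts at 0. Slc7a5 stays between 0.946 and 1.14, Slc7a11 goes from 0.0897 to 0.108 in untreated cells to 0.221 to 0.238 in OHT_IACS, and Slc7a6 goes from 0.502 to 0.543 down to 0.365 to 0.368.

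The ASCT pair moved in opposite directions with OHT. Slc1a4 was at 12.7, 12.3 and 13.8 RPKM in untreated cells, 9.5, 11.0 and 10.4 with OHT, 21.9, 20.8 and 20.7 with IACS, and 19.7, 19.3 and 21.6 in OHT_IACS. It fell by 0.35 on the log2 scale with OHT (SE 0.06, adjusted p = 0.00054), the single decrease among the 9 genes that passed the test. IACS-010759 raised it by 0.68 in nonprimed (adjusted p = 9.1e-06, rank 96) and 0.97 in OHT-primed cells (adjusted p = 2.7e-07, rank 68). The IACS and OHT_IACS libraries overlapped, with a difference of -0.06 (adjusted p = 0.49).

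Slc1a5 took smaller and even steps. Its RPKM was 29.9, 30.3 and 30.8 in untreated cells, 36.4, 35.9 and 39.1 with OHT, 35.6, 35.9 and 37.0 with IACS, and 42.7, 44.1 and 42.3 in OHT_IACS. Each treatment alone brought it to about the same level, and both together to a higher one. OHT raised it by 0.27 (adjusted p = 0.00088) and, with inhibitor, by 0.26 (adjusted p = 0.0017), while IACS-010759 raised it by 0.23 (adjusted p = 0.0076) and 0.21 (adjusted p = 0.0073). The ratio of Slc1a4 to Slc1a5 was therefore lowest with OHT, at 0.278 ± 0.026, and highest with IACS, at 0.586 ± 0.0278. It was 0.426 ± 0.0199 in untreated cells and 0.47 ± 0.0367 in OHT_IACS.

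The system A carriers showed small changes. Slc38a2 was at 27.2, 27.8 and 27.6 RPKM in untreated cells, 31.2, 33.3 and 32.7 with OHT, 33.3, 33.5 and 33.6 with IACS, and 35.7, 37.2 and 38.3 in OHT_IACS. It rose by 0.21 with OHT (adjusted p = 0.0023), and with IACS-010759 it rose by 0.25 in nonprimed (adjusted p = 0.002) and 0.19 in OHT-primed (adjusted p = 0.0075) cells. The increase from IACS to OHT_IACS, 0.15 (adjusted p = 0.022), was lost without IACS replicate 1 (0.137), IACS replicate 2 (0.142) or OHT_IACS replicate 3 (0.12), with adjusted p of 0.088, 0.077 and 0.1.

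Slc38a1 varied little. It was at 11.3, 11.5 and 11.7 RPKM in untreated cells, 10.5, 11.8 and 11.4 with OHT, 12.6, 12.4 and 12.8 with IACS, and 12.9, 12.8 and 12.2 in OHT_IACS. Only the increase from OHT to OHT_IACS passed the test, at 0.17 (SE 0.05, adjusted p = 0.018), and this call was lost without OHT replicate 1 (0.144, adjusted p = 0.062) or OHT_IACS replicate 1 (0.152, adjusted p = 0.063). In nonprimed cells the difference was 0.11 (95% interval 0.01 to 0.21, adjusted p = 0.13). Differences with OHT were -0.06 (adjusted p = 0.33) without and 0.00 (adjusted p = 0.97) with inhibitor.

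The glycine transporter Slc6a9 had the lowest level of the 9 genes and the largest ratio, 3.87, of the OHT_IACS mean to the untreated mean. Its RPKM was 1.87, 2.44 and 2.35 in untreated cells, 2.59, 4.12 and 3.32 with OHT, 5.8, 5.63 and 5.96 with IACS, and 8.62, 8.54 and 8.6 in OHT_IACS. The conditions did not overlap, and the spread was widest with OHT. IACS-010759 raised it by 1.33 (SE 0.13, adjusted p = 1.8e-05, rank 23) and by 1.36 (adjusted p = 9.2e-06, rank 29). The increase with OHT was 0.53 (SE 0.13, adjusted p = 0.005), or 0.826 when the 2 smallest OHT libraries were left out, and that with OHT under the inhibitor was 0.57 (adjusted p = 0.0047). In the same annotation Slc6a9 lies on chromosome 4 from 117834506 to 117875198 on the plus strand, and B4galt2, Ccdc24 and Gm17114 share exonic bases with it on the opposite strand. B4galt2 and Ccdc24 were at 0.122 and 0.301 RPKM at most. The libraries were strand-specific, but the strand setting of the counting was not given in the sources used here, so reads of Slc6a9 and of these genes cannot be told apart with certainty. None of the other 9 transporters had such an overlap.

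The interaction term, the response to IACS-010759 in OHT-primed minus that in nonprimed cells, was not significant for any of the 9 transporters (limma), where 0.144% of all genes (14 of 9745) passed. At an unadjusted p under 0.05, 1 of the 9 passed, against 12.7% of all genes. This was Slc1a4, with a difference of 0.29 (SE 0.08, 95% interval 0.11 to 0.47). Its adjusted p was 0.19 (limma, Benjamini-Hochberg), and 0.07 to 0.59 over the alternatives. By limma voom on the recovered reads the adjusted count was 0 as well. The 95% interval was -0.31 to 0.02 for Slc7a1, -0.25 to 0.18 for Slc7a11 and -0.35 to 0.42 for Slc6a9, so that the intervals of Slc7a11 and Slc6a9 held differences in either direction. For Slc7a5, Slc3a2, Slc1a5, Slc38a1 and Slc38a2 the intervals lay between -0.24 and 0.28.

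**Figure D4:**
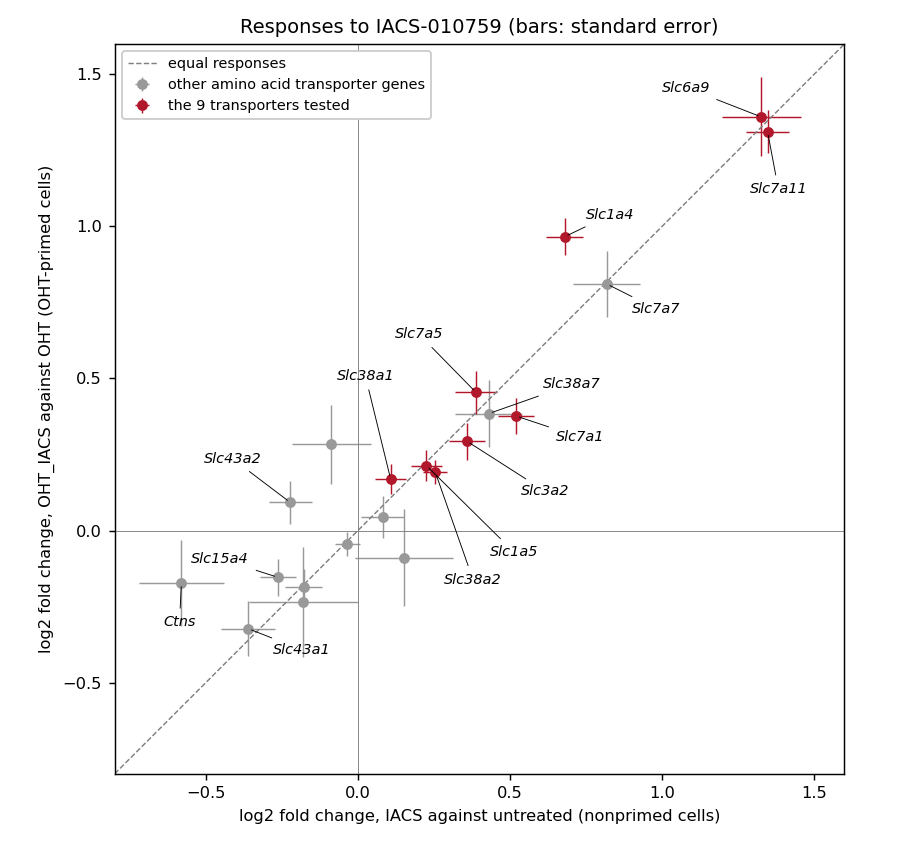
Log2 fold change with IACS-010759 in nonprimed cells (x axis) against that in OHT-primed cells (y axis) for the 9 transporters (red) and 12 other amino acid transporter genes (grey), with standard errors; the dashed line marks equal responses. All red points lie right of and above 0, Slc1a4 is the red point farthest from the line, and most grey points lie near or below 0.

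A wider list of 46 amino acid transporter genes of the plasma membrane and lysosome was set beside these. That list was also chosen with earlier results of these data known. The table held 45 of them, 12 could be tested, and the other 33 were at 0.874 RPKM or less in every library, 11 of them at 0 throughout. With IACS-010759, 2 rose and 4 fell in nonprimed cells (median -0.133), and 2 rose and 1 fell in OHT-primed cells (median -0.066), where 15.9% and 23.7% of all genes were called in either direction. OHT raised 1 and lowered 2 without inhibitor and raised 1 and lowered 1 with it, where 36.4% and 26.5% of all genes were called. Other than for IACS-010759 in nonprimed cells, the calls among the 12 were thus near or below the share over all genes. No interaction passed the test by limma (unadjusted p under 0.05 for 1 of the 12, and 0 by voom after adjustment). These lists were not compared with each other by a test.

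The light chain Slc7a7 (y+LAT1) rose with IACS-010759 like Slc7a11 and, unlike it, fell with OHT. It was at 2.16, 2.65 and 2.48 RPKM in untreated cells, 1.63, 2.1 and 1.83 with OHT, 4.58, 4.74 and 4.01 with IACS, and 3.64, 3.23 and 3.07 in OHT_IACS. The increases were 0.82 (adjusted p = 0.00024) and 0.81 (adjusted p = 0.00018), and it fell by 0.40 (adjusted p = 0.011) with OHT and by 0.41 (adjusted p = 0.013) with OHT under the inhibitor. Slc43a2 (LAT4), a facilitative carrier of large neutral amino acids that needs no heavy chain, rose by 0.50 with OHT (adjusted p = 0.00012) and by 0.81 under the inhibitor (adjusted p = 2.8e-06), from a mean of 3.15 ± 0.161 to 5.59 ± 0.359 RPKM. With IACS-010759 it fell by 0.22 (adjusted p = 0.046) in nonprimed cells only. In OHT-primed cells its difference was 0.09 (adjusted p = 0.37, limma), and the interaction did not pass (adjusted p = 0.23, limma). Its relative Slc43a1 (LAT3) fell with IACS-010759 by 0.36 (adjusted p = 0.015) and 0.32 (adjusted p = 0.019) in nonprimed and OHT-primed cells.

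Of the lysosomal genes, Slc38a7 (SNAT7, an exporter of glutamine and asparagine) rose by 0.43 (adjusted p = 0.019) and 0.38 (adjusted p = 0.024) with IACS-010759. The cystine exporter Ctns fell by 0.58 (adjusted p = 0.014) and the histidine and peptide carrier Slc15a4 by 0.26 (adjusted p = 0.014) in nonprimed cells. Their differences in OHT-primed cells were -0.17 (adjusted p = 0.4) and -0.15 (adjusted p = 0.094), which does not show that the responses differed, as the interaction had an adjusted p of 0.42 for Ctns and 0.63 for Slc15a4. The proton-coupled carrier Slc36a1 fell by 0.40 with OHT (adjusted p = 0.034). Without untreated replicate 2, the calls in this list went from 3 to 1 with OHT and from 6 to 2 with IACS-010759, and without IACS replicate 2 from 6 to 3 with IACS-010759 and from 2 to 1 for OHT_IACS against IACS. The latter count was also 1 without OHT_IACS replicate 3.

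For each of the 9 transporters, the gene with the most similar profile was found by the root mean square difference of gene-centred log2 values over the 12 libraries. For Slc7a11 and Slc6a9 the nearest of all genes tested was the other of the pair, at 0.148. Outside the list, the nearest genes were Gpr141 for Slc7a11 (0.177) and Igfbp6 for Slc6a9 (0.227). Igfbp6 was near the filter of 1 RPKM, and its mean exceeded that only with the inhibitor. It was at 0.314 in untreated cells, 0.578 with OHT, 1.07 with IACS and 1.75 in OHT_IACS. The nearest to Slc3a2 was the seryl-tRNA synthetase gene Sars, at 0.0448. For Slc1a5 it was Lonp1, which encodes a protease of the mitochondrial matrix, at 0.036, and for Slc1a4 the AP-1 family gene Jdp2, at 0.104. The other nearest genes were Ttc17 for Slc7a1 (0.0593), Uhrf1bp1 for Slc7a5 (0.0711), Pdlim5 for Slc38a2 (0.0373) and Rrp1b for Slc38a1 (0.026). A small difference is easier to reach for a gene that varies little, such as Slc38a1, so these distances rank genes for each transporter and are not comparable between transporters.

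Reads on abundant genes rose less steeply with depth than those on low genes. Within conditions, reads on genes with over 1 read per base rose with a median slope of 0.184 on the library total (log2 against log2, 84 genes), and the slope was 0.594 from 0.5 to 1 read per base, 0.911 from 0.3 to 0.5, 1.204 from 0.1 to 0.3 and 1.382 under 0.1. Slc7a5 and Slc3a2, at 0.574 and 0.556 reads per base, had slopes of 0.706 and 0.752. Slc7a11 and Slc6a9, at 0.0906 and 0.0616, had slopes of 1.608 and 1.918, and OHT replicate 2, the deepest OHT library, was the highest of the OHT libraries for both. With the library total as a covariate, every transporter call with IACS-010759 in either background was retained. How far these unlike slopes altered fold changes and ratios compared between abundant and low genes, such as Slc3a2 and Slc7a11, was not tested.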

How the data were processed

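Total RNA of FL MycER cells was depleted of ribosomal RNA and sequenced in 12 libraries, 3 in each of 4 conditions grouped by their labels. The authors deposited RPKM per gene and library, and beside these, for 3 comparisons, the log2 fold changes with adjusted p-values from DESeq2, which were not used. The processing notes name TopHat2 2.0.8, featureCounts 1.4.5-p1, SAMtools and mm9, while the annotation, the strand setting and the treatment of duplicates were not given in the sources used here. Duplicates and reads shared by similar genes could therefore affect levels.

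As no counts were at hand, log2(RPKM + 0.1) was tested with limma 3.58.1 (R 4.3.3) after median-ratio scaling of the libraries. A fold change on this scale understates that of low genes. The 9745 genes that reached 1 RPKM in 3 or more libraries entered a single fit of the 12 libraries with a mean-variance trend. Two-sided p-values were adjusted over all genes tested within each comparison (Benjamini-Hochberg, threshold 0.05). Library totals, gene lengths and reads were worked out from the steps between RPKM values. They gave whole reads, within 0.0005, for 15451 of 15451 genes above 0. In simulated data with a log2 change of 1 in 200 genes, 194 of them were called in OHT against untreated and 192 in IACS against untreated, with 11 and 23 of 9545 unchanged genes called. Smaller changes, such as most of those of the transporters, were not simulated, so these numbers do not give the power for them. Gene positions are from GENCODE vM21 and promoter windows from RefSeq, both on GRCm38, since the deposited table holds no coordinates.

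Named genes were the 10 transporters, listed transporters called in any comparison, Myc, marker genes, and the gene nearest in profile to each called transporter. Others (Slc7a6, Slc7a8, Slc7a10, and the genes that overlap Slc6a9) serve as partners or limits. Members and lists were chosen with earlier results of these data known. Alternatives were other pseudocounts, filters and scalings, no trend, only the compared groups, a replicate block, the library total as covariate, limma voom on recovered reads and each library left out in turn. Leaving out the 2 smallest OHT libraries together was added after seeing the data.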

Additional observations from a re-analysis of the deposited data

How the results depend on the processing

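Over the alternatives, the transporters called numbered 6 to 7 for OHT against untreated, 8 to 9 for IACS against untreated, 7 to 10 for OHT_IACS against OHT, 4 to 6 for OHT_IACS against IACS and 0 for the interaction. The 9 for IACS against untreated and the 10 for OHT_IACS against OHT include Slc7a3. That gene rests on 1 to 3 reads and was tested only without a filter. Of 29 called changes of transporters, 25 kept direction and call under every alternative run, and of their 696 alternative values 678 did so, 18 lost the call and 0 reversed. Calls lost were those of Slc3a2 for OHT against untreated (0.0795 with quantile normalization, 0.0598 with the library total as covariate, 0.0739 without the 2 smallest OHT libraries), of Slc38a1 for OHT_IACS against OHT, and of Slc38a2 for both comparisons with OHT_IACS, and the cause was not tested. Slc7a5 for OHT_IACS against IACS was called in 7 alternatives.

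Some differences that were not called changed sign. For the interaction they were Slc7a11 with a pseudocount of 1 (0.002), Slc3a2 with the library total as covariate (0.00693) and without the 2 smallest OHT libraries (0.0273), Slc1a5 with quantile normalization (0.0288), the covariate (0.0403) and without these libraries (0.06), and Slc6a9 under the same settings (-0.0243, -0.109 and -0.26, against 0.03 as reported). For OHT_IACS against IACS it was Slc38a1 with RPKM as deposited (-0.00308). Leaving out single libraries gave interaction values of -0.0976 to 0.0374 for Slc7a11, -0.0473 to 0.0261 for Slc1a5 and -0.108 to 0.182 for Slc6a9, and of -0.0183 to 0.0357 for Slc38a1 in OHT_IACS against IACS.

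For the other transporter genes, calls for OHT against untreated went from 3 to 1 (RPKM of at least 5), 5 (voom) and 1 (without the 2 smallest OHT libraries), with 1 to 4 on leaving out single libraries. For IACS against untreated they went from 6 to 2 (RPKM of at least 5), with 2 to 6 on leaving out single libraries. For OHT_IACS against OHT they went from 3 to 1 under either the stricter filter or without the 2 smallest OHT libraries. For OHT_IACS against IACS they went from 2 to 4 (no filter) and 1 (RPKM of at least 5), with 1 to 2 on leaving out single libraries. The stricter filter left 6 of the 12 genes to test.

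Over all genes, 3546 were called for OHT against untreated, but 2351 with the covariate and 1870 without the 2 smallest OHT libraries. For IACS against untreated 1548 were called, but 949 to 1030 without any untreated library or IACS replicate 3, and RPKM as deposited gave 867 higher and 469 lower against 794 and 754. For OHT_IACS against OHT 2310 were called, but 713 without the 2 smallest OHT libraries and 1521 without OHT_IACS replicate 3. The interaction gave 14, and 3 to 149 over the alternatives, with 149 without OHT replicate 2.

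Replicate numbers did not pair the libraries: correlations of deviations between same-numbered libraries ran from -0.133 to 0.104, and 1 of 12 libraries correlated best with its own number. With the replicate block 7, 8, 9 and 6 transporters were called in the 4 comparisons and 0 in the interaction, with 7 genes in all for the latter. Counting noise limits Slc7a3 and, at 82 reads in its lowest library, Slc6a9.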
